A study of Mus musculus with 6 samples.

Results

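A set of 33 genes of sugar breakdown and of the response to low oxygen was examined, picked by symbol from a list out of the 27933 genes that the 6 count matrices hold. They comprise 19 glycolysis members (3 transporters, 14 enzymes and 2 regulators) and 14 targets of the hypoxia response, and all 33 were found once in every matrix. The cells came from tumours that 4T1 cells, an established mouse mammary carcinoma line, had formed in mice, and the transcripts were counted by Drop-seq, a droplet method in which a barcode marks the cell and a unique molecular identifier (UMI) marks each captured transcript. In the FVIO-MHT group, 3 libraries, the tumour had received FVIOs, the particles the labels name, at 0.1 mg per cm3 of tumour, and an alternating magnetic field at 365 kHz had been applied for 10 min, 24 hours before collection. The PBS group, labelled as treated with PBS, also had 3 libraries. All 6 share the 4T1 tumour, the time of 24 hours and the dissociation with lysis of red cells. A single protocol text stands on all 6 samples, so whether the PBS tumours were placed in the field remains not given in the sources used here. Nor do the labels say that replicates were separate mice. A p-value here measures only how far these libraries spread, which may be technical.

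Glycolysis turns glucose into pyruvate. Glucose enters through the carriers Slc2a1 and Slc2a3, hexokinases trap it, phosphofructokinases commit it to breakdown, the lower enzymes from aldolase to pyruvate kinase harvest it, lactate dehydrogenase turns pyruvate into lactate, and Slc16a3 exports the lactate. When oxygen is low, the prolyl hydroxylases Egln1 and Egln3 no longer mark the alpha subunit of the transcription factor HIF for destruction, and HIF then raises many glycolysis genes together with Vegfa for vessel growth, Car9 for acid balance, Bnip3 and Bnip3l for mitochondrial removal and P4ha1 and P4ha2 for collagen. The 4T1 line is known for drawing large numbers of neutrophils, and neutrophils are known to rely on glycolysis.

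These 3 promoter stretches are shown because HIF is known to bind a 5-base core, ACGTG or GCGTG, and because these genes carry much of what follows. Slc16a3 and Bnip3 were among the members with the lowest p-values over whole libraries, and Pgk1 was picked after its values were seen, as the member with the lowest p-value in both the macrophage and the tumour cells. Each stretch is the 250 bases before the RefSeq start site on GRCm38.p6, read 5′ to 3′ on the strand of the gene, with the core and its reverse complement in capitals. The Slc16a3 stretch is chr11:120948817-120949066 on the plus strand and lies within the gene as GENCODE annotates it, whose first start is further upstream. The Bnip3 stretch is chr7:138909507-138909756 on the minus strand, and the Pgk1 stretch is chrX:106186850-106187099 on the plus strand.
Slc16a3: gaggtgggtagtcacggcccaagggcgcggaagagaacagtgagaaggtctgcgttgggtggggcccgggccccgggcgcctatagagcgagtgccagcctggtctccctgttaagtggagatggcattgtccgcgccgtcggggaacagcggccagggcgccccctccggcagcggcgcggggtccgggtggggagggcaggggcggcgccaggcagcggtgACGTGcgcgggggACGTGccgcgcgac
Bnip3: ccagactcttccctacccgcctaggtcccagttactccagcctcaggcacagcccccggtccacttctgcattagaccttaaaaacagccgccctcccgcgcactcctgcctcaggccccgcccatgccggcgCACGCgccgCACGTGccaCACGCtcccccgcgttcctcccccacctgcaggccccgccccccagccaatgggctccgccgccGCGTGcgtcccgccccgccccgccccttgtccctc
Pgk1: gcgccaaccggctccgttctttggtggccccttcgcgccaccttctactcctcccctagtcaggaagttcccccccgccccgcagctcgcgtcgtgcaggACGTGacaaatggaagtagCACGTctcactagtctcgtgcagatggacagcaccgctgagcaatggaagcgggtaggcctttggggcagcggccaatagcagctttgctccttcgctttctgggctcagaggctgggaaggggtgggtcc
The Slc16a3 and Pgk1 stretches each held 2 cores and the Bnip3 stretch held 5, where a core and its overlapping reverse complement count separately. Over the full RefSeq windows of 300 bases, which add 50 bases after the start, 27 of the 29 members with an entry had at least 1 core on either strand, 16 of 18 glycolysis members and 11 of 11 hypoxia targets. Among all 27025 genes with such a window, 46.7% had at least 1 core and 22.9% had 2 or more, against 21 of the 29 members with 2 or more. A match to these letters is a description and not a bound site, and Slc2a3, Ndrg1, Bnip3l and Ero1l had no entry.

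Barcodes with at least 200 detected genes were kept, 6730 of 30000. They numbered between 332 and 2325 per library and held between 181213 and 1857821 UMIs. The cell makeup differed widely between libraries of the same group. Neutrophil-like cells were 79.8% of FVIO-MHT replicate 1, 37.5% of replicate 2 and 0.215% of replicate 3, and between 0.616% and 5.83% in the PBS libraries. FVIO-MHT replicate 1 held 0 tumour epithelial-like cells of 332, although the labels give breast cancer cells for every sample. In FVIO-MHT replicate 3, 42.7% of the cells fell in an unnamed cluster led by haemoglobin and keratin genes. PBS replicates 2 and 3 shared 44 barcodes, 33 of them kept in both, where any other pair shared at most 6, and the shared barcodes had a median profile correlation of 0.713 with their namesake against 0.327 with another shared barcode. These barcodes held 16.9% of the UMIs of PBS replicate 3 and 1.09% of those of PBS replicate 2, so those libraries are not fully separate, and each test was repeated without them. Levels are UMIs of a gene per 1000000 UMIs of the library or class (CPM), and 3 UMIs, the limit that a count of 0 allows, correspond to between 1.61 and 16.6 CPM in whole libraries, for counting error only.

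The 19 glycolysis members together took 0.743%, 0.447% and 0.260% of all UMIs in FVIO-MHT replicates 1, 2 and 3. In PBS replicates 1, 2 and 3 they took 0.386%, 0.344% and 0.363%. The PBS libraries thus lay close together and the FVIO-MHT libraries lay on both sides of them. The 14 hypoxia targets behaved alike, at 0.438%, 0.263% and 0.120% in the FVIO-MHT libraries and 0.269%, 0.253% and 0.236% in the PBS libraries. The same order of the FVIO-MHT libraries was seen in macrophage/monocyte-like cells, where glycolysis took 0.585%, 0.444% and 0.294% and the hypoxia targets 0.457%, 0.232% and 0.138%. FVIO-MHT replicate 3 also had the lowest share of both groups of genes among tumour epithelial-like cells, at 0.255% and 0.120%. The makeup of the macrophage/monocyte-like class differed between libraries in a finer clustering (Leiden resolution 2). Its cluster 2, with Arg1 and Mmp12 among the leading genes, held 0, 165 and 12 cells of FVIO-MHT replicates 1, 2 and 3. Cluster 3, led by C1qc, held 61, 42 and 316, and cluster 24, led by Ly6c2, held 0, 4 and 97. The part of this makeup in the macrophage order was not tested. The 11 neutrophil markers took 8.84%, 1.44% and 0.0501% of all UMIs in FVIO-MHT replicates 1, 2 and 3 and between 0.0565% and 0.297% in PBS. Without neutrophil-like cells, which left 67 cells in FVIO-MHT replicate 1, the order of the FVIO-MHT libraries remained. Glycolysis then took 0.551%, 0.450% and 0.260% in FVIO-MHT and 0.380%, 0.345% and 0.363% in PBS. The hypoxia targets took 0.436%, 0.277% and 0.120% against 0.269%, 0.253% and 0.237%. The part of neutrophil-like cells in the sums was not tested, and in bulk sums more cells of a type cannot be told apart from more RNA per cell.

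**Figure D1:**
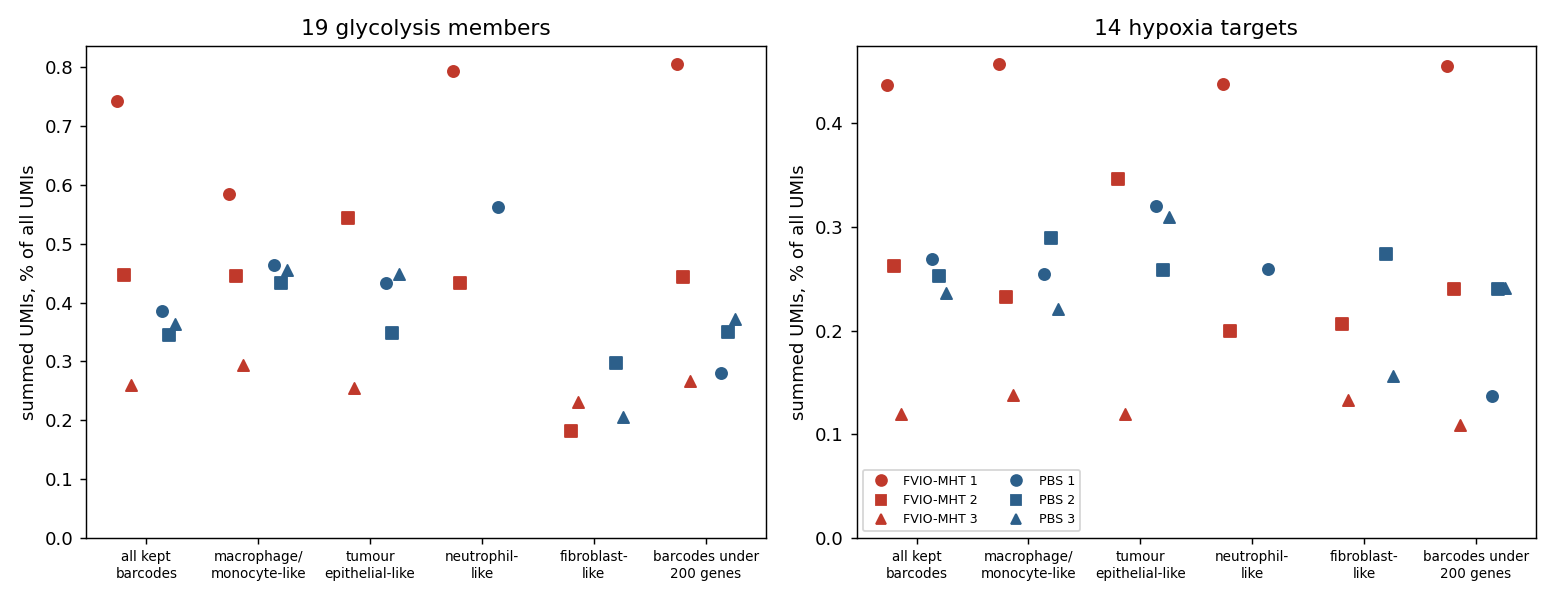
Share of all UMIs taken by the 19 glycolysis members (left) and the 14 hypoxia targets (right), in percent, 1 point per library that holds 20 or more cells of a class, colour for the group and shape for the replicate. FVIO-MHT replicate 1 is highest and FVIO-MHT replicate 3 lowest over all kept barcodes, at 0.743% and 0.260% for glycolysis, with the 3 PBS libraries between them.

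Over whole libraries the members did not separate the groups. In edgeR's quasi-likelihood test, 0 of 8603 genes passed an adjusted p of 0.05 (0%), 31 of the 33 members were tested and 0 passed. DESeq2 called 92 of 17201 genes with a UMI (0.535%), among them Slc16a3 and Pfkfb3. At an unadjusted p under 0.05 there were 451 genes, or 5.24%, and 2 of the 31 members. The median log2 fold change of FVIO-MHT over PBS was 0.75 for the 17 glycolysis members tested, 14 of them positive, and 0.32 for the 14 hypoxia targets, 9 of them positive, against -0.04 for all genes. Leaving out FVIO-MHT replicate 1 gave medians of -0.01 and -0.46, with 0 of 14 hypoxia targets positive. With no library left out, a minimum of 400 genes per barcode gave 0.00 and -0.28, and leaving out neutrophil-like cells gave 0.08 and -0.16. The minimum of 400 genes left few cells in FVIO-MHT replicate 1, with 16 macrophage/monocyte-like, 8 neutrophil-like and 0 tumour epithelial-like. In FVIO-MHT replicate 2 it left 27 neutrophil-like cells.

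Slc16a3, the lactate exporter, stood at 607, 196.5 and 22.9 CPM in FVIO-MHT replicates 1, 2 and 3 and at 37.5, 8.61 and 27.6 CPM in PBS replicates 1, 2 and 3. The groups overlapped, since FVIO-MHT replicate 3 lay below PBS replicates 1 and 3. Its log2 fold change was 4.07 ± 1.27 (SE, 3 against 3 libraries; adjusted p = 0.878, edgeR), with an adjusted p of 0.0151 in DESeq2. Without neutrophil-like cells the log2 fold change was 1.83, and without FVIO-MHT replicate 1 it was 2.19. Pfkfb3, which makes the allosteric activator of phosphofructokinase, stood at 701, 94.4 and 21.8 CPM against 31.8, 26.4 and 42.5 CPM. Replicate 3 was below all PBS libraries. The log2 fold change was 3.66 ± 1.30 (SE; adjusted p = 0.878, edgeR; adjusted p = 0.0402, DESeq2), and 0.78 without FVIO-MHT replicate 1.

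Slc2a1, the main glucose carrier of most tissues, was at 590.5, 262 and 48.7 CPM in the FVIO-MHT libraries and between 134 and 167 CPM in PBS, a log2 fold change of 1.55 ± 0.92 (SE; adjusted p = 0.892, edgeR). Slc2a3, a high-affinity glucose carrier, was at 171, 15.5 and 1.72 CPM against 3.23 to 6.81 CPM and did not pass the count filter. Among the enzymes of the committed steps, Pfkp had 337, 126.5 and 36.6 CPM against 57.1 to 93.1 CPM and a log2 fold change of 1.61 ± 0.89 (SE; adjusted p = 0.892, edgeR). Hexokinase 2, Hk2, had 425, 272 and 217.5 CPM against 171 to 236 CPM and a log2 fold change of 1.00 ± 0.59 (SE; adjusted p = 0.892, edgeR). Without FVIO-MHT replicate 1 the log2 fold changes of Slc2a1, Pfkp and Hk2 were 0.07, 0.07 and 0.29. In these 4 genes FVIO-MHT replicate 1 was highest of the 6 libraries and FVIO-MHT replicate 3 was within or below the PBS range. Over all 19 glycolysis members, 14 were highest in FVIO-MHT replicate 1 and 12 were lowest in FVIO-MHT replicate 3. Of the 8603 genes tested, 15.2% were highest in the former and 11.4% lowest in the latter.

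Aldoc, the aldolase best known from brain, ran the other way, with 11, 49.95 and 17.7 CPM against 46.6, 84.0 and 38.2 CPM. Its log2 fold change was -0.93 ± 0.57 (SE; adjusted p = 0.893, edgeR) and the groups overlapped. It was -1.73 without FVIO-MHT replicate 2, -0.56 without FVIO-MHT replicate 3 and -0.50 without PBS replicate 2. Gapdh gave only 14 to 55 CPM in any library. Glycolysis genes such as Gapdh, Eno1, Pgk1, Tpi1, Pkm, Ldha and Pgam1, and Mif among the hypoxia targets, have near-identical copies elsewhere in the genome, so their counts are uncertain. The exons of 11 members also overlap a gene on the opposite strand, and use of strand in the counting is not stated.

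Among the hypoxia targets, Ero1l, an oxidase of disulfide formation in the endoplasmic reticulum, had 1164, 176.5 and 34.3 CPM in FVIO-MHT against 203, 102 and 99.8 CPM in PBS. Bnip3, a mitophagy receptor, had 883, 130 and 24.0 CPM against 124, 108 and 93.4 CPM. In both genes replicate 1 lay far above and replicate 3 below all PBS values. The log2 fold changes were 2.42 ± 1.24 for Ero1l and 2.31 ± 1.23 for Bnip3 (SE; both adjusted p = 0.892, edgeR). Without FVIO-MHT replicate 1 they turned to -0.38 and -0.53, and without neutrophil-like cells they were 0.01 and 0.68.

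In 4 of the 31 members tested all 3 FVIO-MHT values were under the lowest PBS value, and in 0 the reverse held. Among all genes tested the shares were 9.46% below and 3.17% above, so the 4 stand near the background. They were Pgk1 and Eno1, enzymes of the lower steps of glycolysis, Car9 and the collagen prolyl hydroxylase P4ha2. Pgk1 had 166, 134 and 102.5 CPM in FVIO-MHT against 171.5, 267.5 and 268 CPM in PBS. Eno1 had 132, 155 and 197 CPM against 204, 266 and 378 CPM. The highest FVIO-MHT level of either gene was close to the lowest PBS level. Car9, the carbonic anhydrase of hypoxic tumour cells, had 0, 95.5 and 18.3 CPM against 111, 110 and 99.8 CPM, and the library at 0 was the one without tumour epithelial-like cells.

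**Figure D2:**
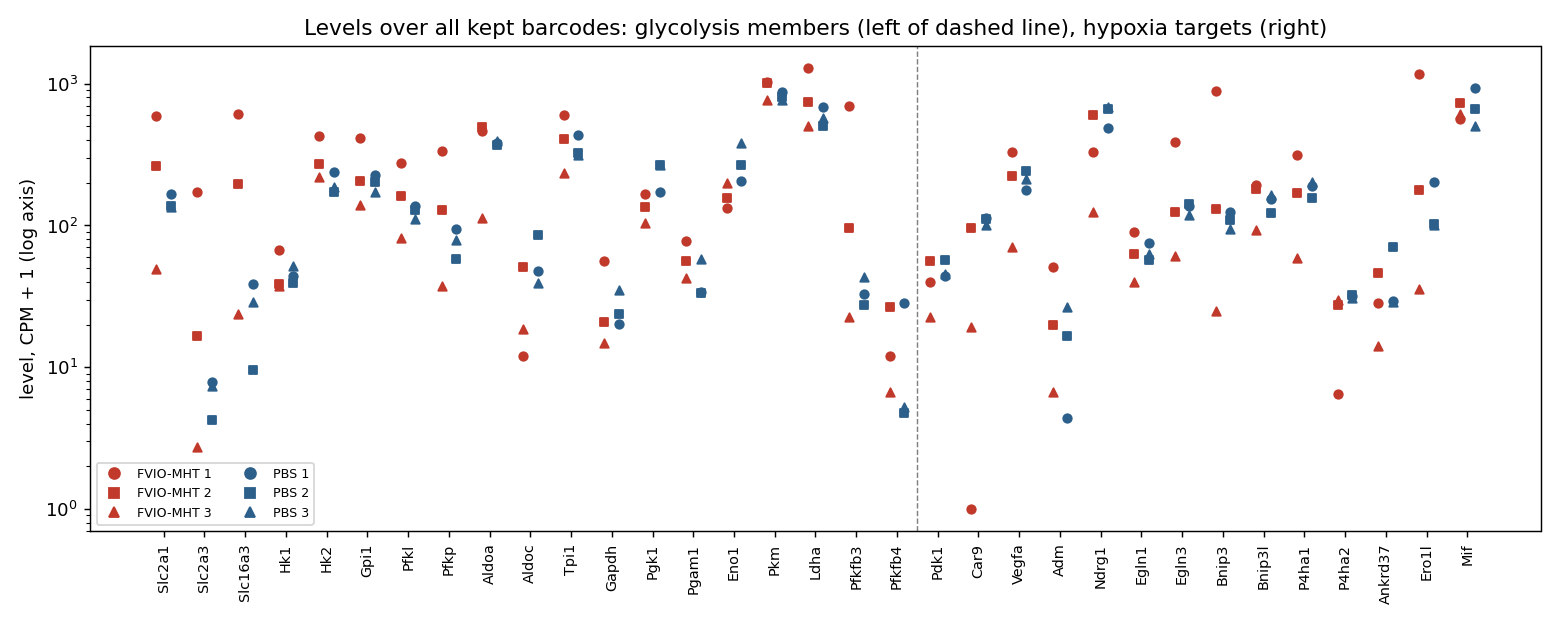
Level of each member over all kept barcodes, CPM plus 1 on a log axis, 1 point per library, glycolysis members left of the dashed line and hypoxia targets right of it. For Slc16a3 the FVIO-MHT points lie between 22.9 and 607 CPM and the PBS points between 8.61 and 37.5 CPM, while for Eno1 the PBS points, from 204 to 378 CPM, all lie above the FVIO-MHT points.

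The mean levels of the members differed between the cell classes, which were drawn from these cells without using the 117 genes of the pathway lists, so the differences between classes are described and not tested. Of the 30 members with at least 100 UMIs, 16 had their highest mean level in neutrophil-like cells, 8 in tumour epithelial-like, 3 in macrophage/monocyte-like and 3 in fibroblast-like cells. Among 7500 genes with as many UMIs, 11.1% were highest in neutrophil-like and 20.2% in tumour epithelial-like cells. Slc16a3 averaged 611 CPM in neutrophil-like cells (n = 3 libraries), 174 CPM in macrophage/monocyte-like cells (n = 6) and 6.61 CPM in tumour epithelial-like cells (n = 5). Pfkfb3 followed the same order, with 417, 168 and 14.2 CPM, and averaged 189 CPM in endothelial-like cells (n = 3). Ero1l averaged 686 CPM in neutrophil-like cells and 140 and 150.5 CPM in the other two, and Bnip3 558 CPM against 200.5 and 109 CPM. Slc2a3 averaged 87.8 CPM in neutrophil-like cells and 50.9 CPM in T/NK-like cells (n = 4), with at most 13.4 CPM in the other named classes compared.

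Other members had their highest level elsewhere. Car9 averaged 140 CPM in tumour epithelial-like cells and at most 13.4 CPM in the 6 other classes with at least 3 libraries. Vegfa, the vessel growth factor, was highest in macrophage/monocyte-like cells at 602 CPM, against 127 CPM in tumour epithelial-like cells. Ndrg1, a stress-responsive gene, was about even between the same classes, at 608 and 604 CPM. Adm, the vasoactive peptide adrenomedullin, and P4ha2 were highest in fibroblast-like cells (n = 4), at 137 and 169 CPM. P4ha2 had 0 UMIs in neutrophil-like cells of all 3 libraries. Pgk1, Eno1, Tpi1 and Mif had their highest mean in tumour epithelial-like cells, at 237, 294, 425 and 857 CPM. For Tpi1 the lead was slight, since its tumour epithelial-like values ran from 225 to 640 CPM. In macrophage/monocyte-like cells Tpi1 averaged 389 CPM in FVIO-MHT and 430 CPM in PBS. Within PBS replicate 1 Tpi1 was higher there, at 606 CPM against 512 CPM in tumour epithelial-like cells.

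**Figure D3:**
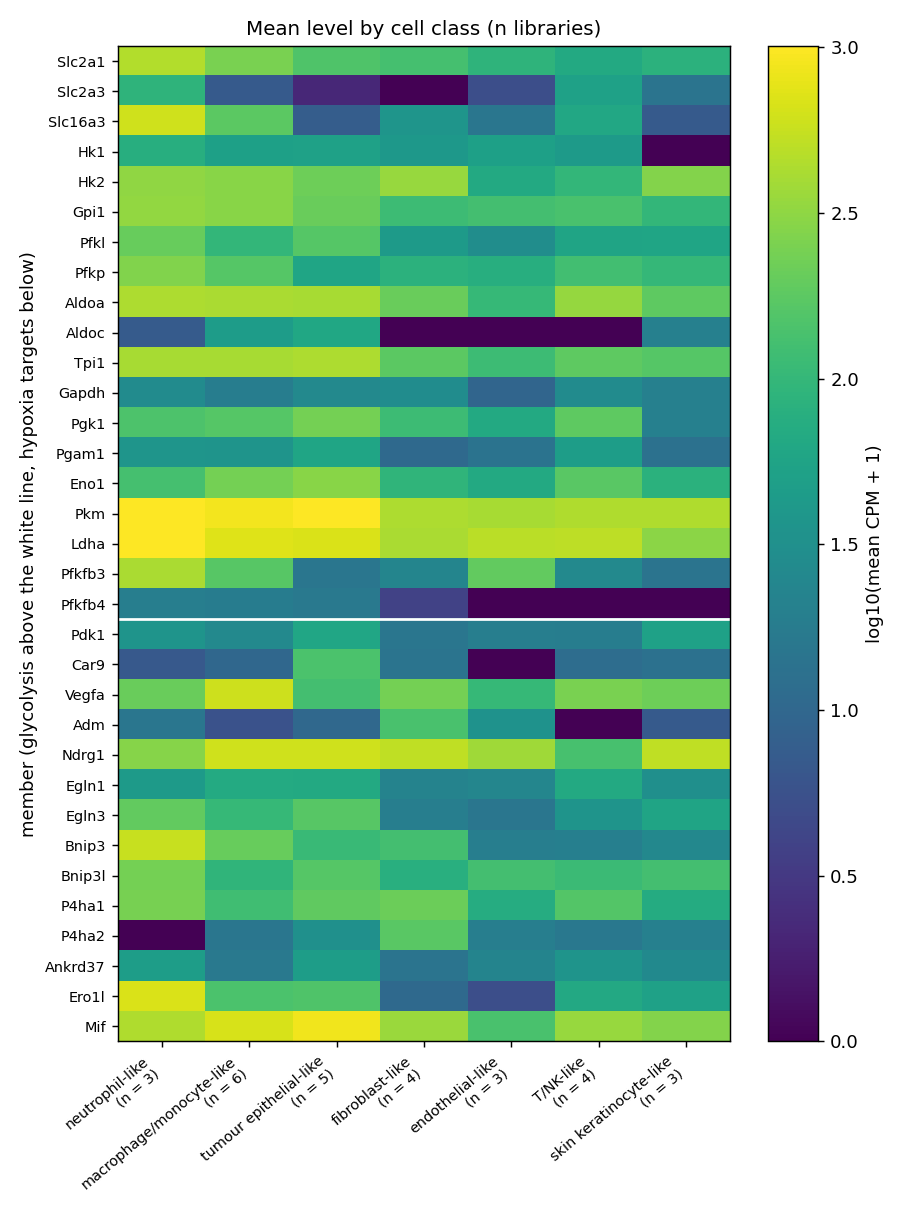
Mean level of each member in 7 cell classes, as the log10 of CPM plus 1, averaged over the libraries with at least 20 cells of the class (number in the axis label), glycolysis above the white line and hypoxia targets below. Slc16a3, Pfkfb3, Bnip3 and Ero1l are brightest in neutrophil-like cells, Vegfa in macrophage/monocyte-like cells and Car9 in tumour epithelial-like cells.

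These class means pool different libraries, since the neutrophil-like mean includes FVIO-MHT replicate 1 and not replicate 3, and the tumour epithelial-like mean the reverse. Only FVIO-MHT replicate 2 and PBS replicate 1 held 20 or more cells of each of the neutrophil-like, macrophage/monocyte-like and tumour epithelial-like classes. Within FVIO-MHT replicate 2, 6 of the 30 members were highest in neutrophil-like cells, 3 in macrophage/monocyte-like and 21 in tumour epithelial-like cells, against 17.9%, 26.9% and 55.2% of all genes compared. Within PBS replicate 1 the counts were 11, 5 and 14, against 22.3%, 28.7% and 49.0%. In both libraries tumour epithelial-like cells led in the most members, as they did among all genes compared, so this lead is not particular to the members. Against the shares of all genes, their count was above in FVIO-MHT replicate 2 and slightly below in PBS replicate 1. The neutrophil-like count was slightly above in FVIO-MHT replicate 2 and above in PBS replicate 1. Fewer classes were ranked here than in the pooled means. Slc2a1, Slc16a3, Bnip3 and Ero1l were highest in neutrophil-like cells in both, and Pfkfb3 in PBS replicate 1 only. Ldha was at 482, 638 and 1015 CPM in FVIO-MHT replicate 2 and 1085, 943 and 704 CPM in PBS replicate 1, in the order of classes above. The glycolysis share was 0.434%, 0.444% and 0.543% in FVIO-MHT replicate 2 and 0.562%, 0.463% and 0.433% in PBS replicate 1. The share of the hypoxia targets was highest in tumour epithelial-like cells in both, at 0.347% and 0.321%.

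Among single members the exporter and the anhydrase kept opposite places in tumour epithelial-like cells. In FVIO-MHT replicate 2, Slc16a3 was at 750 CPM in neutrophil-like, 294 CPM in macrophage/monocyte-like and 15 CPM in tumour epithelial-like cells. In PBS replicate 1 the same gene was at 388, 219 and 6.92 CPM. Car9 was highest in tumour epithelial-like cells in these libraries, at 17.9, 7.17 and 195 CPM in FVIO-MHT replicate 2 and 0, 16.8 and 163 CPM in PBS replicate 1. There 3 UMIs make 116 CPM in the neutrophil-like cells. The 17.9 and 7.17 CPM rest on 3 and 1 UMIs and the 16.8 CPM on 1, so these 2 classes cannot be ranked for Car9. Tumour epithelial-like cells thus had the lowest Slc16a3 and the highest Car9 level of these classes in a treated and in a control library.

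In macrophage/monocyte-like cells, which numbered 64, 223 and 432 in the FVIO-MHT libraries and 101, 203 and 93 in the PBS libraries, no member passed the test. The edgeR test called 0 of 2115 genes (0%), with 89 genes (4.21%) at an unadjusted p under 0.05, and DESeq2 called 1 gene, not a member. Only 17 of the 33 members passed the count filter. The median log2 fold change was 0.02 for 12 glycolysis members and -0.11 for 5 hypoxia targets, against 0.01 for all genes.

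Pgk1, phosphoglycerate kinase, stood at 145, 100.4 and 78.1 CPM in FVIO-MHT macrophages and at 135, 237 and 276 CPM in PBS macrophages. Its log2 fold change was -1.08 ± 0.48 (SE, 3 against 3; unadjusted p = 0.0451, adjusted p = 0.974, edgeR), and the groups overlapped in 1 library each. Eno1, enolase, stood at 116, 107.5 and 193 CPM against 168, 231 and 610 CPM, a log2 fold change of -1.13 ± 0.55 (SE; adjusted p = 0.974, edgeR), which was -0.45 without PBS replicate 3. P4ha1, which hydroxylates collagen, was at 86.9, 93.2 and 87.2 CPM against 101, 96.1 and 247 CPM, with a log2 fold change of -0.63 ± 0.52 (SE; adjusted p = 0.974, edgeR), which was -0.10 without PBS replicate 3. P4ha1 was the 1 of 17 members whose FVIO-MHT values all lay below the PBS values, and 0 lay above, where 6.48% and 3.5% of all genes tested did so. Its value in FVIO-MHT replicate 1 rests on 3 UMIs, the limit that a count of 0 allows, and in PBS replicate 1 on 6. Those of Pgk1 and Eno1 in FVIO-MHT replicate 1 rest on 5 and 4 UMIs.

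Pfkfb3 was at 376, 237 and 64.3 CPM in FVIO-MHT macrophages against 135, 96.1 and 102 CPM, a log2 fold change of 0.94 ± 0.63 (SE; adjusted p = 0.974, edgeR), which was 0.40 without FVIO-MHT replicate 1. Slc16a3 was at 289.5, 294 and 50.5 CPM against 219, 76.9 and 116 CPM, a log2 fold change of 0.64 ± 0.68 (SE; adjusted p = 0.974, edgeR), which ran from 0.20 without FVIO-MHT replicate 2 to 1.23 without replicate 3. In both, 2 FVIO-MHT libraries lay above the PBS libraries and replicate 3 lay below them. Vegfa, the hypoxia target with its highest level here, ran from 280 to 840 CPM in FVIO-MHT and from 472 to 807 CPM in PBS. The 11 neutrophil markers made up 0.614%, 0.324% and 0.0877% of the macrophage counts of the FVIO-MHT libraries, and 0.256%, 0.0455% and 0.116% of those of the PBS libraries, each in the order of replicates 1 to 3, with Ly6g at 0 in all 6. Of these markers, S100a8, Trem1 and Il1r2 were also raised in the macrophage/monocyte-like cluster over the median cluster. Which cells these marker counts came from, and their part in the macrophage values, was not tested.

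In tumour epithelial-like cells most members had a negative log2 fold change, and 0 passed the test. There were 216 and 623 such cells in FVIO-MHT replicates 2 and 3 and 447, 1055 and 174 in PBS replicates 1, 2 and 3. The edgeR test called 0 of 7589 genes (0%), with 671 genes (8.84%) at an unadjusted p under 0.05, and DESeq2 called 34 genes, none a member. Of the 13 hypoxia targets tested, 0 had a positive log2 fold change and their median was -0.64. Of the 17 glycolysis members tested, 2 were positive (Pgam1 and Ldha) and the median was -0.29, against 0.02 for all genes.

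The low values came from 1 of the FVIO-MHT libraries. Ndrg1 stood at 732 and 83.4 CPM in FVIO-MHT replicates 2 and 3 and at 547, 704 and 954 CPM in PBS replicates 1, 2 and 3, a log2 fold change of -1.0 ± 0.69 (SE, 2 against 3; adjusted p = 0.689, edgeR). Vegfa stood at 135 and 36.5 CPM against 177, 176 and 109 CPM, a log2 fold change of -1.05 ± 0.50 (SE; adjusted p = 0.586, edgeR). Ankrd37, a small ankyrin-repeat protein, stood at 55.0 and 12.5 CPM against 39.8, 77.5 and 42.0 CPM, a log2 fold change of -0.99 ± 0.59 (SE; adjusted p = 0.647, edgeR). In these genes FVIO-MHT replicate 2 lay within the PBS range and replicate 3 lay below it. Without replicate 3 the log2 fold changes were -0.13 for Ndrg1, -0.36 for Vegfa and -0.18 for Ankrd37, and without replicate 2 they were -3.19, -2.17 and -2.23.

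All 14 hypoxia targets and 14 of 19 glycolysis members had their lowest tumour-cell level in FVIO-MHT replicate 3. Among the 7589 genes tested, 25.5% were lowest in that library. Car9 was at 29.2 CPM there and between 128 and 195 CPM in the other 4 libraries, Bnip3 at 18.8 CPM against 98.2 to 152.5 CPM, and P4ha1 at 44.8 CPM against 158 to 244 CPM. Without FVIO-MHT replicate 2, which leaves this library alone against PBS and assumes that it varies like them, 189 of 8836 genes were called (2.14%), 47 higher and 142 lower. Of the 31 members tested 7 were called (Slc2a1, Aldoa, Car9, Vegfa, Ndrg1, Bnip3 and P4ha1), all lower. Without FVIO-MHT replicate 3 instead, 0 genes were called and the medians were 0.32 for glycolysis and 0.05 for the hypoxia targets.

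**Figure D4:**
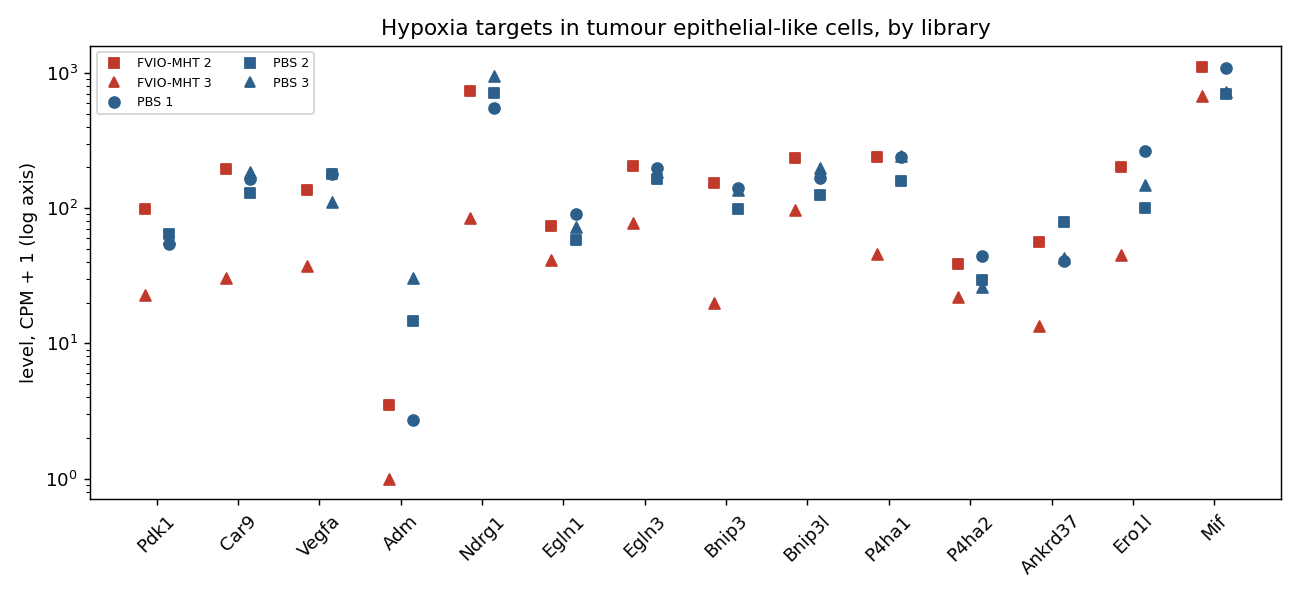
Hypoxia targets in tumour epithelial-like cells, CPM plus 1 on a log axis, 1 point per library. FVIO-MHT replicate 3 is the lowest point for all 14 genes, and FVIO-MHT replicate 2 lies within or above the PBS range.

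Pgk1 followed this split and Eno1 did not. Pgk1 was at 199.98 and 122 CPM in FVIO-MHT tumour cells against 197, 283 and 382 CPM, a log2 fold change of -0.95 ± 0.38 (SE; unadjusted p = 0.0317, adjusted p = 0.530, edgeR), and the groups overlapped in 1 library each. Eno1 was at 227 CPM in both FVIO-MHT libraries against 254, 283 and 479 CPM, a log2 fold change of -0.66 ± 0.35 (SE; adjusted p = 0.613, edgeR), which was -0.36 without PBS replicate 3. Eno1 was the 1 of 30 members tested whose FVIO-MHT libraries both lay below PBS, and 0 lay above, where 9.07% and 17.4% of all genes tested did so. Leaving out the barcodes that PBS replicates 2 and 3 share gave -1.0 for Pgk1 and -0.61 for Eno1.

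The tumour epithelial-like cells of different libraries fell mainly in different clusters, so cluster and library largely coincide. Cluster 4 held 570 of the 623 cells of FVIO-MHT replicate 3, cluster 5 held 280 of the 447 of PBS replicate 1, and cluster 8 held 555 of the 1055 of PBS replicate 2. Cluster 4 was low in hypoxia targets in other libraries too. Within FVIO-MHT replicate 2 these targets took 0.229% of the UMIs in cluster 4, 0.400% in cluster 5 and 0.380% in cluster 10. Within PBS replicate 1 they took 0.213% in cluster 4, 0.315% in cluster 5, 0.298% in cluster 8 and 0.434% in cluster 10. In FVIO-MHT replicate 3 the share in cluster 4 was 0.119%, and in cluster 10 it was 0.109%. The low share of that library was thus also present within both of its clusters.

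Ndrg1 and Bnip3 were also lower in cluster 4 than in cluster 10 within PBS replicate 1, on few UMIs in cluster 4. In PBS replicate 1 Ndrg1 was at 104 CPM in cluster 4 and 835 CPM in cluster 10, and Bnip3 at 51.9 and 304 CPM. In FVIO-MHT replicate 3 Ndrg1 was at 82.0 CPM in cluster 4 and 83.7 CPM in cluster 10. Cluster 10 of that library held only 23901 UMIs, and cluster 4 of PBS replicate 1 only 38572. The Ndrg1 level in the former and the Bnip3 level in the latter lie under the limit of 3 UMIs. Car9 is among the 10 leading genes of cluster 10 although it was not used to form the clusters, and within PBS replicate 3 it was at 329 CPM there against 115 CPM in cluster 8.

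**Figure D5:**
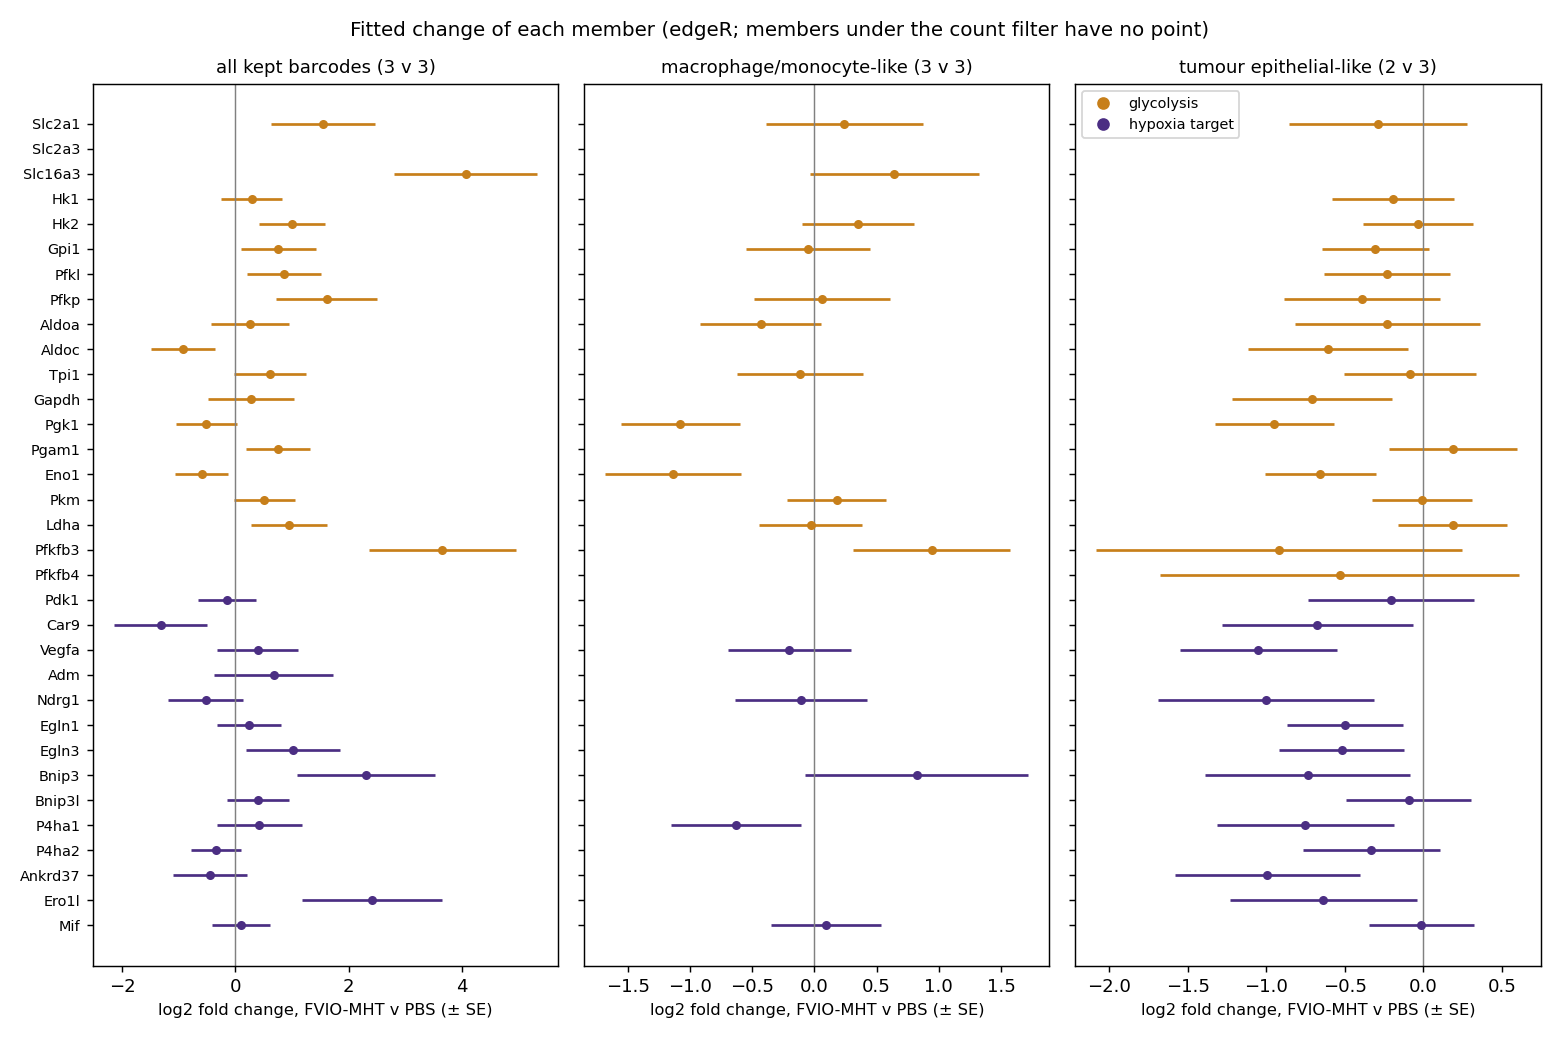
Fitted log2 fold change of each member, FVIO-MHT against PBS, with its standard error, in all kept barcodes, macrophage/monocyte-like cells and tumour epithelial-like cells (each panel has its own scale). Over whole libraries Slc16a3 and Pfkfb3 are largest at 4.07 and 3.66, and in tumour epithelial-like cells every hypoxia target lies below 0.

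Neutrophil-like cells could be compared only between FVIO-MHT replicates 1 and 2 (265 and 393 cells) and PBS replicate 1 (63 cells), and the lone PBS library is assumed to vary like the others. The edgeR test called 0 of 2580 genes (0%), with 56 genes (2.17%) at an unadjusted p under 0.05, and DESeq2 called 0. Of the 33 members 26 were tested. Ero1l was at 1365 and 345 CPM in FVIO-MHT and 349 CPM in PBS, a log2 fold change of 1.61 ± 1.19 (SE; adjusted p = 0.989, edgeR). Egln3, the oxygen sensor that HIF itself induces, was at 369 and 125 CPM against 77.5 CPM, a log2 fold change of 1.95 ± 1.32 (SE; adjusted p = 0.989, edgeR). Its PBS value rests on 2 UMIs, under the 116 CPM that 3 UMIs make there, so the size of this change is uncertain. Hk1, the housekeeping hexokinase, was at 48.7 and 23.8 CPM against 155 CPM, a log2 fold change of -1.83 ± 1.40 (SE; adjusted p = 0.989, edgeR). These Hk1 values rest on 7 and 4 UMIs against 4.

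Slc2a3 was at 216 and 47.6 CPM in FVIO-MHT neutrophil-like cells and had 0 UMIs in PBS replicate 1. Against the 116 CPM that 3 UMIs make in that library, its FVIO-MHT mean of 132 CPM was at least 1.13-fold higher (adjusted p = 0.989, edgeR). That bound rests on FVIO-MHT replicate 1, since replicate 2 lay under the limit. Egln1, the main oxygen sensor, was at 90.5 and 35.7 CPM against 0 UMIs, which is under that limit and gives no fold. Slc16a3 and Bnip3 were high in all 3 libraries, at 696, 750 and 388 CPM and at 954, 178.5 and 543 CPM. FVIO-MHT replicate 1 exceeded replicate 2 by 1365 against 345 CPM for Ero1l, 794 against 185 CPM for Pfkfb3 and 1407 against 482 CPM for Ldha, so neutrophil-like cells of the same group differed. The cluster that held most of them also differed, cluster 0 with 259 of 265 cells in replicate 1 and cluster 2 with 343 of 393 in replicate 2.

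A test of whether the change differed between macrophage/monocyte-like and tumour epithelial-like cells used the 5 libraries with both classes, with the library as a block. It called 1 of 5856 genes (0.0171%), not a member, and 346 genes (5.91%) had an unadjusted p under 0.05. Ndrg1 had the lowest p-value of the 28 members tested, a macrophage minus tumour difference in log2 fold change of 1.03 ± 0.50 (SE; adjusted p = 0.828, edgeR). Pfkfb3 differed by 1.54 ± 0.90 (adjusted p = 0.916, edgeR), Vegfa by 0.59 ± 0.46 (adjusted p = 0.995, edgeR), Bnip3l by 0.72 ± 0.60 and Pgam1 by 0.80 ± 0.80 (SE; both adjusted p = 1.00, edgeR). Leaving out 1 library moved these differences between 0.27 and 1.62 for Ndrg1, 0.66 and 5.19 for Pfkfb3, 0.03 and 0.93 for Vegfa, 0.12 and 1.36 for Bnip3l, and 0.50 and 1.16 for Pgam1. The lowest value came without FVIO-MHT replicate 3 in each of the 5, and the highest for Ndrg1, Pfkfb3 and Vegfa without FVIO-MHT replicate 2. A different response of the classes was therefore not shown for any member.

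Other genes of the pathways gave 0 calls over whole libraries, in either direction and in each of the 3 lists. Of 15 HIF factors and regulators 11 were tested, 7 were positive and their median log2 fold change was 0.16. Hif1a, the oxygen-regulated subunit, was at 673, 322 and 170 CPM in FVIO-MHT against 284, 144 and 142 CPM, a log2 fold change of 1.5 ± 0.76 (SE; adjusted p = 0.892, edgeR), and its paralogue Epas1 had 1.04 ± 0.51 (SE; adjusted p = 0.878, edgeR). Of 36 further glycolysis and gluconeogenesis genes 16 were tested, 9 were positive and their median was 0.17. The pentose phosphate enzyme Taldo1 was at 304, 248.6 and 242 CPM against 151, 77.5 and 151 CPM, with 1.38 ± 0.54 (SE; adjusted p = 0.878, edgeR). All 3 FVIO-MHT libraries lay above PBS for this gene, including replicate 3, as they did for 3.17% of all 8603 genes tested. Of 35 further hypoxia targets 30 were tested, 17 were positive and their median was 0.43. The highest were Gys1, glycogen synthase, at 3.31 ± 1.09, and the lipid droplet genes Plin2 and Hilpda, at 3.02 ± 1.00 and 3.01 ± 1.14 (SE; all adjusted p = 0.878, edgeR). Hilpda was at 1683, 385 and 89.3 CPM against 156, 88.8 and 166 CPM, the same order of FVIO-MHT libraries as Slc16a3.

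The barcodes under 200 genes, which can hold free RNA and poorly captured cells, carried the same order of the FVIO-MHT libraries as the kept cells. Glycolysis took 0.805%, 0.443% and 0.266% of their counts in the FVIO-MHT libraries, replicate 1 first, and 0.280%, 0.349% and 0.372% in PBS. The hypoxia targets took 0.455%, 0.240% and 0.109% against 0.137%, 0.240% and 0.241%. The PBS libraries did not keep their order, since PBS replicate 1 was highest in the kept cells and lowest here. Neutrophil markers took 7.65%, 3.48% and 0.268% of these UMIs in FVIO-MHT and 1.71%, 0.385% and 0.950% in PBS. PBS replicate 1 thus had the most marker UMIs and the lowest shares of the PBS libraries. Slc16a3 was at 486, 497 and 71.7 CPM in these barcodes of the FVIO-MHT libraries. In the tumour epithelial-like cells of FVIO-MHT replicates 2 and 3 it was at 15 and 2.09 CPM. In these barcodes 2 of 33 members, Hk2 and Pkm, lay higher in every FVIO-MHT library than in any PBS library and 0 lay lower, where 1.86% and 8.18% of 10730 genes did so.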

How the data were processed

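Drop-seq UMI counts per gene and barcode were deposited by the authors, 5000 barcodes per library; STAR 2.7.2b and mm10 are named per the submitters' processing notes, while counting tool, annotation and strand remain not given in the sources used here. The 65 rows that repeat a symbol held identical counts and were dropped. Barcodes with at least 200 genes were clustered in scanpy 1.11.5 (2000 variable genes, 30 components, 15 neighbours, Leiden resolution 1) without the 117 pathway genes. A cluster was named from at least 3 class markers unless its 10 leading genes held 2 or more of another class; these details were settled after the leading genes had been seen. Scrublet called 17 barcodes (0.253%), too few to have worked, so doublets were kept.

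Counts were summed per library, or per library and class with at least 20 cells, scaled to CPM, and tested with edgeR 4.0.16 in R 4.3.3 (quasi-likelihood, TMM, filterByExpr, Benjamini-Hochberg over all genes, threshold 0.05), group as the only term. DESeq2 1.42.0, RLE scaling, no count filter, a replicate block, other gene minimums, Leiden resolution 2 and leaving out each replicate were alternatives. The script was tested on simulated data. Members and lists were chosen with earlier results of these data known. Statistics are printed for the 8 members with the lowest p over whole libraries, the 5 in each other test and up to 3 genes per other list; remaining members are given by counts and ranges. Positions are 1-based on GRCm38, the build of mm10.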

Additional observations from a re-analysis of the deposited data

Results flagged for a closer look

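Barcodes under the gene minimum enter none of the group tests, and 2 members stood out in them. Hk2 averaged 388 CPM in FVIO-MHT, from 206 to 741 CPM, above all 3 PBS libraries, which ran from 128 to 198 CPM. Pkm averaged 929 CPM, from 805 to 1101 CPM, above PBS libraries that ran from 572 to 725 CPM. Neither difference was tested, and 1.86% of 10730 genes showed the same order.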

How the results depend on the processing

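Over whole libraries DESeq2 called 92 genes and 2 members (Slc16a3 and Pfkfb3), and no count filter gave 2 genes. In macrophage/monocyte-like cells DESeq2 called 1 gene and no filter 24, and leaving out 1 library gave 0 to 2. In tumour epithelial-like cells DESeq2 called 34 and no filter 141; leaving out 1 library gave 0 to 189 genes and 0 to 7 members, the highest without FVIO-MHT replicate 2, and 9 genes without PBS replicate 1. In neutrophil-like cells RLE scaling, no filter and Leiden resolution 2 each called 1 gene. The test between classes called 30 without a filter and 3 to 59 leaving out 1 library. Over whole libraries, leaving out 1 library moved Ero1l between -0.38 and 2.94 and Bnip3 between -0.53 and 2.83, negative only without FVIO-MHT replicate 1; the cause of these shifts was not tested. No other named member changed sign in any alternative run. The medians of both lists in macrophage/monocyte-like cells, which lay near 0, each changed sign in 4 alternatives. Leaving out the shared PBS barcodes, chosen after seeing the data, kept every count of member calls at 0.

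With the replicate number as a block, 19 genes and 0 members were called in tumour epithelial-like cells and 0 genes over whole libraries, where the list medians were 0.42 and 0.03, and in macrophage/monocyte-like cells. Deviations of same-numbered libraries correlated at 0.16, 0.02 and -0.08 over whole libraries and at 0.15, -0.11 and 0.12 in macrophage/monocyte-like cells. The labels give no pairing, and with 3 libraries per group of such different makeup these values cannot settle whether the numbers pair them. For neutrophil-like cells no block or leave-one-out fit was possible, because no residual degrees of freedom were left, and a minimum of 400 genes left too few cells. Depth limits the smaller classes: only 17 of 33 members passed the count filter in macrophage/monocyte-like cells.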
